A study of Homo sapiens with 2 samples.

Results

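The RAB genes encode the largest branch of the RAS superfamily of small GTPases. A RAB protein in its GTP-bound form sits on a particular membrane (endoplasmic reticulum, Golgi, endosome, lysosome or secretory vesicle) and recruits effectors that move, tether and fuse vesicles. Exchange factors load it with GTP, GTPase-activating proteins switch it off, and a GDP dissociation inhibitor carries the prenylated protein back through the cytosol. Some RABs serve steps that every cell needs, and others are known mainly from neurons, secretory cells, blood cells, pigment cells or epithelia.

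The genes were taken as every RefSeq protein-coding gene of GRCh38 on chromosomes 1 to 22 and X whose symbol is RAB followed by a digit, which gave 74 of 19974 genes. The rule is one of symbols, and 10 of the 74 encode proteins that bind or regulate RABs and are not GTPases themselves (RAB3GAP1, RAB3GAP2, RAB3IL1, RAB3IP, RAB5IF and RAB11FIP1 to RAB11FIP5). The other 64 are the GTPases, of which 34 were classed as widely expressed, 26 as tissue-restricted and 4 as unclassified from textbook knowledge, since a peak list measures no RNA and the cell type could not be checked against expressed markers.

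The samples were Ishikawa cells, a line derived from human endometrial carcinoma. The TCF19 overexpression population was infected with a lentivirus carrying TCF19, a nuclear PHD-finger protein, and the control population with a control lentivirus; both were selected with puromycin, and both were immunoprecipitated with an antibody against TCF19. Each population gave 1 library and 1 list of called peaks on hg38, so no test between the populations was possible and all comparisons are descriptions of these libraries. The lists held 111569 summits in TCF19 overexpression and 169542 in control on the chromosomes used. The genome average coverage, solved from the fold and p-value of the peaks, was 1.43 reads in TCF19 overexpression and 1.58 in control, a depth ratio of 0.903. TCF19 itself had 3 summits in TCF19 overexpression and 0 in control. The TCF19 overexpression cells also carry the lentiviral TCF19 sequence, and whether these summits hold its reads was not tested.

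Most RAB genes had a called summit within 1000 bp of either end of the gene, termed a gene-end summit here. In TCF19 overexpression 62 of 74 genes (83.8%) had one, and in control 51 (68.9%). Over all protein-coding genes the shares were 64.8% and 54.6%. Both libraries had a gene-end summit at 48 RAB genes, TCF19 overexpression alone at 14, control alone at 3 and neither at 9; over all genes 48.8% had one in both, 16.0% in TCF19 overexpression alone, 5.84% in control alone and 29.4% in neither. Equal numbers of summits, those with the highest fold, were also kept in each list, which shortens the control list alone. The counts in 1 library alone then became 28 in TCF19 overexpression and 0 in control. At that setting 62 RAB genes had a gene-end summit in TCF19 overexpression and 34 in control. Shares over all genes were not computed at that setting. No test was made of the difference from all genes, because genes are not replicates.

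Widely expressed and tissue-restricted GTPase genes had gene-end summits at like shares. In TCF19 overexpression 28 of 34 widely expressed genes (82.4%) and 20 of 26 tissue-restricted genes (76.9%) had one. In control the counts were 24 of 34 (70.6%) and 17 of 26 (65.4%). The heights of the summits overlapped between the classes: the median of the highest gene-end pileup (reads covering the summit) was 17 reads in widely expressed and 15.5 in tissue-restricted genes in TCF19 overexpression, and 13.5 and 15 reads in control. Among genes with a summit in both libraries, the pileup over the genome average was higher in TCF19 overexpression at 20 of 23 widely expressed genes, with a median log2 ratio of 0.47 to control, and at 10 of 15 tissue-restricted genes, with a median of 0.15. All 10 genes of RAB-binding proteins had a gene-end summit in TCF19 overexpression and 7 in control.

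**Figure D1:**
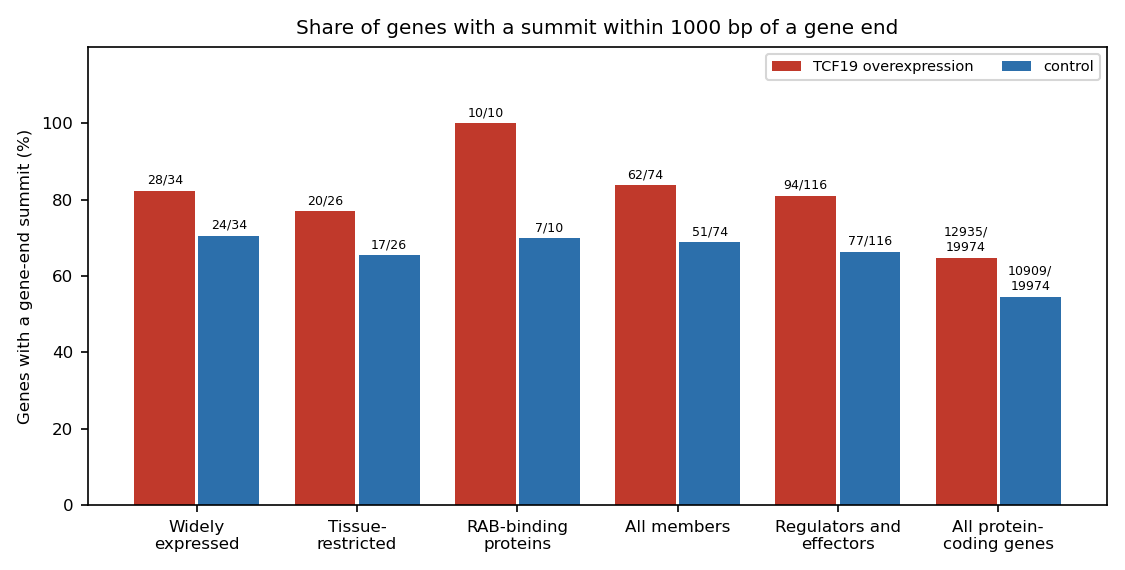
Share of genes (percent, vertical axis) with a summit within 1000 bp of a gene end in the TCF19 overexpression and control libraries, by gene class, with counts above the bars. The bars of widely expressed and tissue-restricted RAB genes stand at 82.4% and 76.9% in TCF19 overexpression and at 70.6% and 65.4% in control, against 64.8% and 54.6% of all protein-coding genes.

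Pileups were low throughout. Gene-end pileups ranged from 10 to 25 reads in TCF19 overexpression, with a median of 16, and from 8 to 25 reads in control, with a median of 14. Over all genes with a gene-end summit the medians were 17 and 14 reads. At the 48 RAB genes with a summit in both libraries the depth-scaled pileup had a median log2 ratio of 0.36 for TCF19 overexpression over control, beside 0.38 at all 9742 such genes. The ratio was positive at 37 and negative at 11. It is scaled by the genome average alone and takes no account of local background, so the fold can order the libraries differently. At RAB15 the ratio was -0.02, while the folds were 3.68 in TCF19 overexpression and 2.74 in control. Such genes were not counted. It was at least 1.5-fold in favour of TCF19 overexpression at 14 of the 48 (29.2%), against 32.7% of all such genes, and at least 1.5-fold in favour of control at 1 (2.08%), against 1.38%. These shares are near the background. Where both libraries had a summit, the highest ones lay at the same gene end in 44 of 48 genes, with a median gap of 230.5 bp, and within 100 bp of each other in 15. In the other 4 (RAB10, RAB36, RAB37 and RAB39A) the ratio sets opposite ends of the gene beside each other. At the same end the values of a gene can also come from different summits. Examples are RAB4A, RAB5A, RAB6B, RAB22A and RAB11FIP5, with summits on opposite sides of the start. The exact Poisson 95% intervals of the libraries overlapped at all 48 genes. Overlap does not show that the libraries were alike at a gene, and the intervals leave out the spread between cultures.

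**Figure D2:**
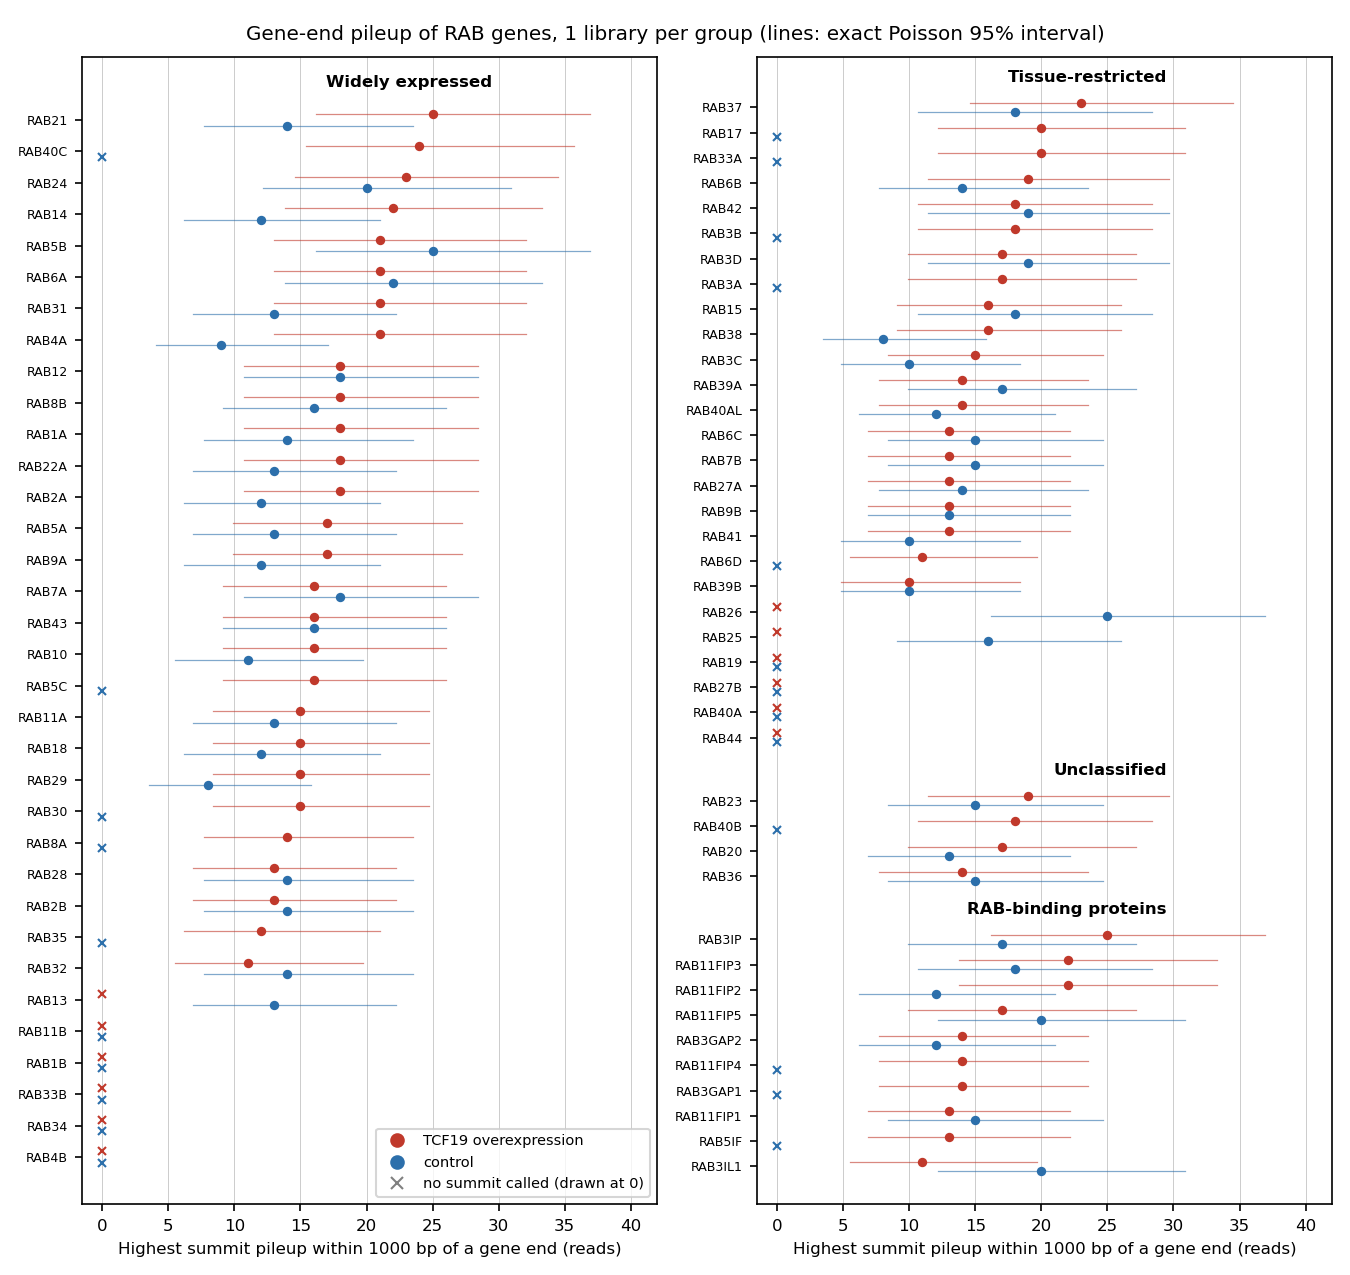
Highest summit pileup within 1000 bp of a gene end (reads, horizontal axis) for each of the 74 RAB genes in TCF19 overexpression and control, with exact Poisson 95% intervals as lines; a cross at 0 marks a gene with no called summit, not a pileup of 0. Genes are ordered within each class by the TCF19 overexpression value. The intervals of the libraries overlap at all 48 genes with a summit in both.

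The GTPases of the early secretory pathway were covered unevenly. RAB1A, which directs vesicles from the endoplasmic reticulum to the Golgi, had 18 reads in TCF19 overexpression and 14 in control. Its close paralogue RAB1B had no gene-end summit in either library; the nearest summits lay 2564 bp from a gene end in TCF19 overexpression and 17457 bp in control. RAB2A, which acts between the same compartments, had 18 reads in TCF19 overexpression and 12 in control. RAB2B had 13 and 14, at different summits that are both shared with an end of TOX4.

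At the Golgi, RAB6A had one of the higher pileups in both libraries. RAB6A, which drives traffic within and out of the Golgi, had 21 reads (13.0 to 32.1) in TCF19 overexpression and 22 (13.8 to 33.3) in control. Its neuronal relative RAB6B had 19 and 14 reads. RAB6C and RAB6D are near-identical copies in this family, so their reads may be misplaced: RAB6C had 13 reads in TCF19 overexpression and 15 in control, and RAB6D had 11 reads in TCF19 overexpression and no gene-end summit in control. RAB41 of the same family had 13 and 10 reads, at a summit shared with ARR3. RAB43 had 16 reads in each library, and RAB30 had 15 reads in TCF19 overexpression and no gene-end summit in control, where the nearest, of 14 reads, lay 1186 bp from a gene end.

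Other Golgi GTPases lay outside the window or were seen in 1 library. RAB33A, known from brain and lymphocytes, had 20 reads in TCF19 overexpression and no gene-end summit in control. RAB33B, its widely expressed relative, which also acts in autophagy, had none in either; the nearest summits lay 1968 bp from a gene end in TCF19 overexpression and 1928 bp in control. RAB34, which positions lysosomes, had its nearest summits 1008 and 1161 bp from a gene end, just past the 1000 bp limit, in TCF19 overexpression and control. Just inside the limit, the nearest summit to an end of RAB3IP lay at 874 bp in TCF19 overexpression, and that of RAB22A at 972 bp in control. Measured from its annotated start, RAB34 had a summit 848 bp downstream with 18 reads in TCF19 overexpression, while the control summit of 15 reads lay at 1001 bp.

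All 6 GTPase genes of the early endosome had a gene-end summit in TCF19 overexpression, and 5 had one in control. The shares over all protein-coding genes were 64.8% and 54.6%, and a group of 6 genes is small. RAB21, which acts in integrin endocytosis, had the highest value of the GTPases in TCF19 overexpression, with 25 reads (16.2 to 36.9) and a 5.38-fold enrichment (the authors' value), against 14 reads (7.7 to 23.5) in control. RAB5A, which organises early endosome fusion, had 17 reads in TCF19 overexpression, 153 bp upstream of its start, and 13 in control, 620 bp downstream. Both of these summits are shared with EFHB. RAB5B ran the other way, with 21 reads (13.0 to 32.1) in TCF19 overexpression and 25 (16.2 to 36.9) in control. RAB5C, the remaining RAB5 paralogue, had 16 reads in TCF19 overexpression and no gene-end summit in control, where the nearest lay 4574 bp away. RAB31 had 21 and 13 reads. RAB22A had 18 reads 145 bp downstream of its start in TCF19 overexpression and 13 reads 972 bp upstream in control. The early endosome group had a median of 19.5 reads in TCF19 overexpression and 13 in control. Over all genes with a gene-end summit the medians were 17 and 14 reads.

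The recycling GTPases ranged from summits in both libraries to none in either. RAB4A, which returns receptors quickly to the cell surface, had the highest log2 ratio of all RAB genes, 1.37. It had 21 reads (13.0 to 32.1) in TCF19 overexpression and 9 (4.1 to 17.1) in control. The ratio sets different sites beside each other, 416 bp downstream of the start in TCF19 overexpression and 516 bp upstream in control. The paralogue RAB4B had no gene-end summit in either library. RAB11A, of the slow recycling endosome, had 15 reads in TCF19 overexpression and 13 in control, while RAB11B had none in either, with the nearest summit 6004 bp from a gene end in TCF19 overexpression and 14265 bp in control. RAB14 had 22 reads (13.8 to 33.3) in TCF19 overexpression and 12 (6.2 to 21.0) in control; its summit also lies within 1000 bp of an end of GSN, so it cannot be assigned to either gene. RAB35 had 12 reads in TCF19 overexpression and no gene-end summit in control. RAB15, a brain GTPase, had 16 and 18 reads.

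The GTPases of polarised epithelia were each seen in 1 library, at the far end of the gene. RAB17 had 20 reads (12.2 to 30.9) in TCF19 overexpression, near the end of the gene opposite its start, and no gene-end summit in control. The local background of that summit was 5.12 times the genome average, and its fold was 2.53. RAB25, an epithelial relative of RAB11, had 16 reads (9.1 to 26.0) in control at its far end and no gene-end summit in TCF19 overexpression. Neither had a summit within 1000 bp of its annotated start in either library.

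Late endosomal and lysosomal GTPases had gene-end summits in both libraries. RAB7A, which directs fusion with lysosomes, had 16 reads in TCF19 overexpression and 18 in control. RAB7B had 13 and 15, RAB9A had 17 and 12, and RAB9B had 13 in each. Among those of lysosome-related organelles, RAB38, known from melanocytes, had 16 reads (9.1 to 26.0) in TCF19 overexpression and 8 (3.5 to 15.8) in control, a log2 ratio of 1.15, and RAB32 had 11 and 14. RAB29, a partner of the kinase LRRK2, had 15 reads (8.4 to 24.7) in TCF19 overexpression and 8 (3.5 to 15.8) in control, a log2 ratio of 1.05. RAB24, of the autophagy pathway, was high in both, with 23 reads in TCF19 overexpression and 20 in control. These were different summits, both shared with PRELID1.

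GTPases of exocytosis and the primary cilium followed no single pattern. RAB8A, which delivers cargo to the cilium and surface, had 14 reads in TCF19 overexpression and no gene-end summit in control, where a summit of 17 reads lay 1204 bp upstream of the start, just past the limit. RAB8B had 18 and 16 reads. RAB10 had 16 reads near its start in TCF19 overexpression and 11 near its far end in control. Measured from the annotated start, which lies inside the RefSeq span, it also had summits of 17 reads at 421 bp in TCF19 overexpression and 14 reads at 433 bp in control. RAB13, of tight junctions, had 13 reads in control at its far end and no gene-end summit in TCF19 overexpression. RAB23, a negative regulator of Hedgehog signalling, had 19 and 15 reads at a summit shared with PRIM2, and RAB28 had 13 and 14. RAB18, of lipid droplets, had 15 reads in TCF19 overexpression and 12 in control. RAB12 had 18 reads in each library, RAB20 had 17 in TCF19 overexpression and 13 in control, and RAB36 had 14 at one end of the gene in TCF19 overexpression and 15 at the other end in control.

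Of 8 genes of regulated secretion, known mainly from neurons and gland cells, 6 had a gene-end summit in TCF19 overexpression and 5 in control. These shares, 75% and 62.5%, stand beside 64.8% and 54.6% of all protein-coding genes. All 4 RAB3 genes, whose products prime synaptic and secretory vesicles, had a gene-end summit in TCF19 overexpression, with 17 reads at RAB3A, 18 at RAB3B, 15 at RAB3C and 17 at RAB3D. In control only RAB3C, with 10 reads, and RAB3D, with 19, had one. RAB37, of mast cell granules, had 23 reads (14.6 to 34.5) in TCF19 overexpression, at a summit shared with an end of NHERF1, and 18 (10.7 to 28.4) in control at the opposite end of the gene. At that opposite end TCF19 overexpression had a summit of 18 reads as well. The summit of 23 reads had a local background of 5.93 times the genome average and a fold of 2.53. RAB27A, of melanosomes and lytic granules, had 13 and 14 reads at different summits that are both shared with PIGB and PIGBOS1. RAB27B had none in either library, with the nearest 14238 bp from a gene end in TCF19 overexpression and 14287 bp in control. RAB26, of secretory granules, had 25 reads (16.2 to 36.9) in control, level with RAB5B as the highest there, and no summit in TCF19 overexpression within 23770 bp of its ends. The other tissue-restricted genes with summits in both were RAB39A (14 reads at its start in TCF19 overexpression, and 17 at its far end and 16 near its start in control), RAB39B (10 in each) and RAB42 (18 and 19); RAB19 and RAB44 had none in either.

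The RAB40 genes, whose products carry a SOCS box and act in ubiquitin ligases, had unlike status. RAB40C had 24 reads (15.4 to 35.7) in TCF19 overexpression, the highest of the genes seen there alone, and no control summit within 86039 bp of its ends. RAB40B had 18 reads in TCF19 overexpression and no gene-end summit in control. RAB40AL had 14 and 12 reads and RAB40A none in either, and these copies are too alike for their reads to be placed with confidence. Over the 14 numbered RAB families with more than 1 gene, 10 held genes of unlike status (both, 1 alone or neither). In TCF19 overexpression 8 families had a gene-end summit at every gene, against 4 in control. No count over other gene families was made to set beside these. More RAB genes were called in TCF19 overexpression in all, 62 of 74 against 51 in control.

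Among the RAB-binding proteins, RAB3IP, an exchange factor for RAB8, had 25 reads (16.2 to 36.9) in TCF19 overexpression and 17 (9.9 to 27.2) in control, with summits 1 bp apart. Control also had a summit of 21 reads 744 bp downstream of the annotated start, which lies outside the window because the RefSeq span begins farther upstream. RAB3IL1, of the same kind, had the lowest log2 ratio of all RAB genes, -0.72. It had 11 reads (5.5 to 19.7) in TCF19 overexpression and 20 (12.2 to 30.9) in control. These summits lay apart, at 61946279 in TCF19 overexpression and 61945637 in control on chromosome 11. Control also had a summit of 11 reads at 61946432, nearer to that of TCF19 overexpression. RAB3GAP2, a subunit of the RAB3 GTPase-activating complex, had 14 and 12 reads, and the catalytic subunit gene RAB3GAP1 had 14 reads in TCF19 overexpression and no gene-end summit in control, where the nearest lay 2023 bp from a gene end. Of the RAB11 effectors, RAB11FIP2 had 22 reads (13.8 to 33.3) in TCF19 overexpression and 12 (6.2 to 21.0) in control, and RAB11FIP3, which acts in cytokinesis, had 22 and 18. RAB11FIP1 had 13 and 15 reads and RAB11FIP5 had 17 and 20. RAB11FIP4 had 14 and RAB5IF 13 reads in TCF19 overexpression, and neither had a gene-end summit in control.

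The place of the summit was also recorded for genes seen in 1 library alone. Over all RAB genes with a strand, the highest gene-end summit lay mostly at the start. In TCF19 overexpression it lay there at 48 genes and at the far end at 1, and in control at 35 and 4. Of the 14 seen in TCF19 overexpression alone, 11 had it at the start, 1 (RAB17) at the far end, and 2 (RAB33A and RAB11FIP4) have no strand in the promoter table. Of the 3 seen in control alone, RAB13 and RAB25 had it at the far end, and RAB26 has no strand in that table. These are too few for a comparison of the libraries. Scaled by depth, all 17 pileups exceeded the lowest pileup called in the other library at a local background within 5% of the same level. For RAB40C an equal occupancy would give 26.6 reads in control, where the lowest such call had 18. For RAB26 it would give 22.6 reads in TCF19 overexpression, where the lowest had 19. All 17 pileups had themselves been called, so the lowest call is a low bar. The other library's own background at these genes was not used, so the values do not show whether occupancy was absent there. RAB40C and RAB26 also had local read densities of 5.70 and 6.23 times the genome average, and their folds were 2.73 and 2.40; the part of local density in these calls was not tested.

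Strand and start site were known for 59 of the 74 genes. Within 1000 bp of the start, 49 of the 59 (83.1%) had a summit in TCF19 overexpression and 37 (62.7%) in control, against 63.4% and 51.4% of all 15812 genes in the table. At starts, 12 RAB genes were seen in TCF19 overexpression alone and 0 in control alone, where all genes gave 16.6% and 4.53%. Of the summits within 5 kb of a RAB start, 75 of 83 in TCF19 overexpression (90.4%) and 48 of 72 in control (66.7%) lay within 1 kb of it; for all genes the shares were 71.2% and 59.8%. The median position was 165 bp downstream of the start in TCF19 overexpression and 251.5 bp in control, and 51 of 75 and 33 of 48 summits lay downstream. RefSeq gene spans cover all annotated transcripts, and at RAB13 and RAB3IL1 the start used here lies 4369 and 26039 bp inside the span.

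**Figure D3:**
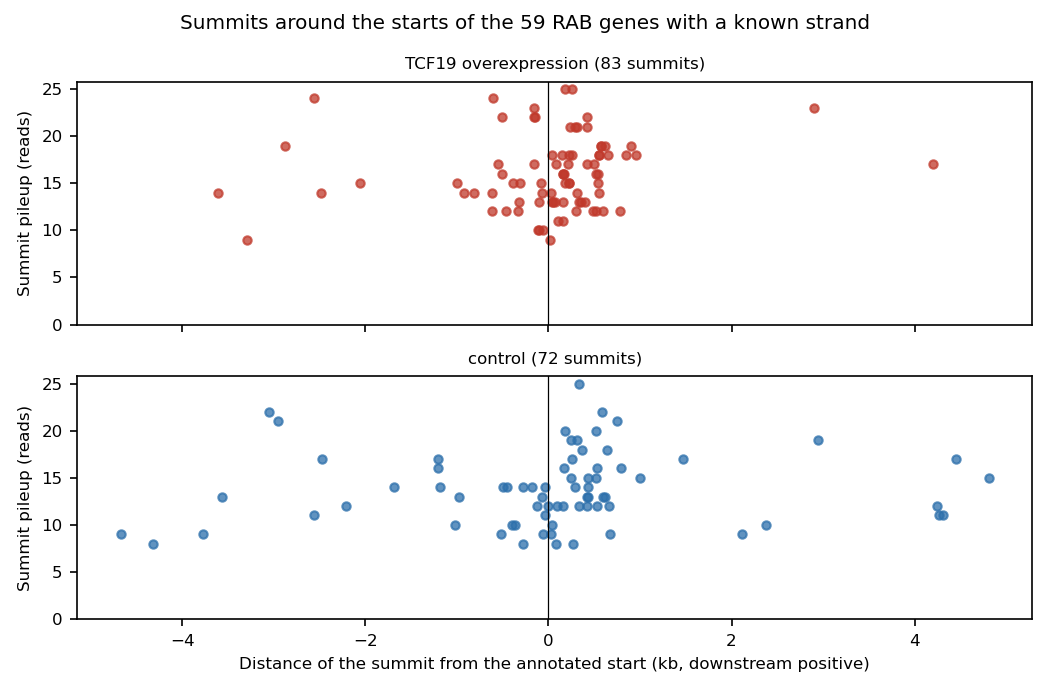
Pileup (reads, vertical axis) and position of each summit within 5 kb of the start of the 59 RAB genes with a known strand (kb, horizontal axis, downstream positive), with TCF19 overexpression above control. In TCF19 overexpression 8 summits lie more than 1 kb from the start, and in control 24.

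Promoters (250 bases before to 50 after the start, from RefSeq, GRCh38.p14) were compared by base composition. The median GC content was 68.3% in 30 widely expressed and 59.3% in 19 tissue-restricted RAB genes, against 62.7% over all genes, and the median number of CpG dinucleotides was 30.5 and 15, against 22. RAB promoters with a start-site summit had a median GC content of 67.7% in TCF19 overexpression and 65.7% in control; those without one had 61.3% and 62.2%. Over all genes the promoters with and without a start-site summit in TCF19 overexpression had medians of 65.7% and 54.3%. The ranges overlapped: RAB1B (68.3%), RAB4B (69.3%) and RAB11B (66.7%) had no start-site summit in either library, and RAB29 (48.3%) had one in both. RAB6D (40.7%) and RAB40AL (46.3%) also had one in TCF19 overexpression, but as near-identical copies their reads may be misplaced.

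**Figure D4:**
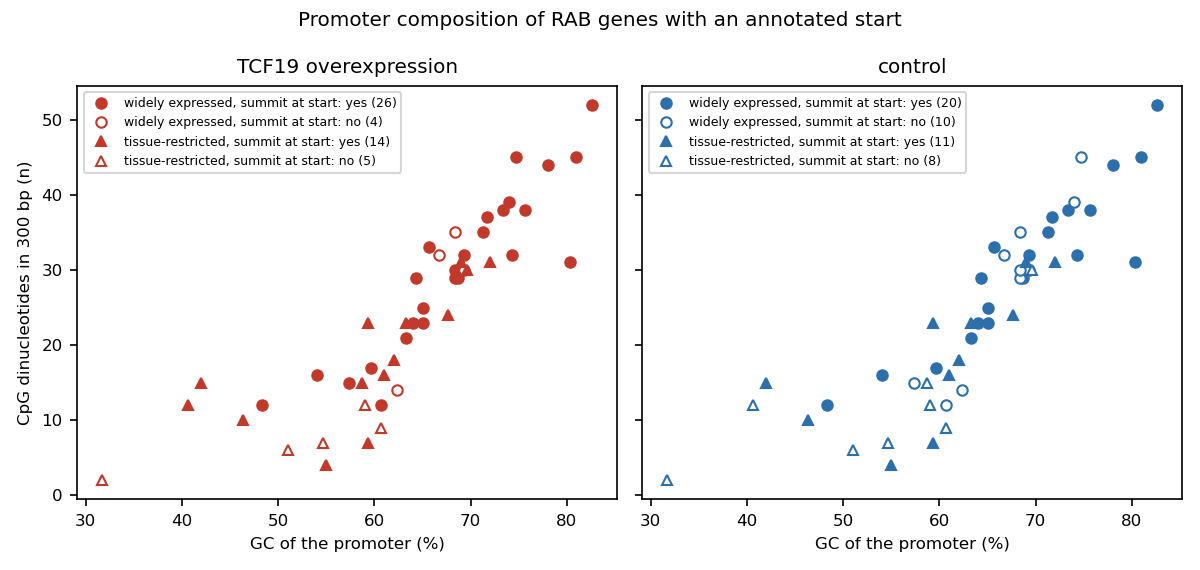
GC content (percent, horizontal axis) and number of CpG dinucleotides (vertical axis) in the promoters of 30 widely expressed (circles) and 19 tissue-restricted (triangles) RAB genes, filled where the library had a summit within 1000 bp of the start, with TCF19 overexpression left of control. Filled symbols number 26 and 14 in TCF19 overexpression and 20 and 11 in control, and open symbols occur at high as well as low GC.

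The promoters below show the 3 highest start-site pileups in TCF19 overexpression (RAB21, RAB3IP, RAB40C), the highest ratios to control among other genes whose promoter is in the table (RAB4A, RAB29), and the most GC-rich tissue-restricted genes without a gene-end summit (RAB19, RAB27B). Capitals mark matches, on either strand, to CCAAT, the GC box (GGGCGG), the cyclic AMP response element (TGACGTCA), the E-box (CACGTG), the core of the NRF1 motif (GCATGCGC) and the ETS motif (CCGGAAGT).
RAB21 (chr12:71754613-71754912, plus strand): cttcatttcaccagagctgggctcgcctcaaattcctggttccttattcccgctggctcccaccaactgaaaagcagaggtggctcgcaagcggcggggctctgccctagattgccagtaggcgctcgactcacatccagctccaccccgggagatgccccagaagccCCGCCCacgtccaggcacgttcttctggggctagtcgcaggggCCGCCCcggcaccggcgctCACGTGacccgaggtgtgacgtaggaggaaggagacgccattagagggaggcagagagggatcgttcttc
RAB3IP (chr12:69738610-69738909, plus strand): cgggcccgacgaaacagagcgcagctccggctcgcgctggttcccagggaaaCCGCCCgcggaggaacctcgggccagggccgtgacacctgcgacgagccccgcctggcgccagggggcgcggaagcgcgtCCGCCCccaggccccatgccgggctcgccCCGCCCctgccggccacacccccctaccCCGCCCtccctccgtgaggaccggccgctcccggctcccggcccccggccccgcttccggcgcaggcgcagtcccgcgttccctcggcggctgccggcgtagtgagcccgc
RAB40C (chr16:589107-589406, plus strand): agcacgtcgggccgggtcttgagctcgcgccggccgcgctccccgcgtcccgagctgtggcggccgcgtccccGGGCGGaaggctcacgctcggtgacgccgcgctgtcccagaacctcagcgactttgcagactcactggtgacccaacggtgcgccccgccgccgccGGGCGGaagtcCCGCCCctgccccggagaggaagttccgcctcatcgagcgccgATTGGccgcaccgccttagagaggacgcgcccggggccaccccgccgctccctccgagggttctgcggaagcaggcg
RAB4A (chr1:229270861-229271160, plus strand): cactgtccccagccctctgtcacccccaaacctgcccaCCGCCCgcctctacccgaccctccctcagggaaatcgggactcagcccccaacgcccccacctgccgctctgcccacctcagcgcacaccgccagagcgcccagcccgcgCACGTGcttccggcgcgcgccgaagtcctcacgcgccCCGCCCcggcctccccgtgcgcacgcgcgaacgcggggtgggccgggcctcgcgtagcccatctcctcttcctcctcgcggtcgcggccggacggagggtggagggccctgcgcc
RAB29 (chr1:205775433-205775732, minus strand): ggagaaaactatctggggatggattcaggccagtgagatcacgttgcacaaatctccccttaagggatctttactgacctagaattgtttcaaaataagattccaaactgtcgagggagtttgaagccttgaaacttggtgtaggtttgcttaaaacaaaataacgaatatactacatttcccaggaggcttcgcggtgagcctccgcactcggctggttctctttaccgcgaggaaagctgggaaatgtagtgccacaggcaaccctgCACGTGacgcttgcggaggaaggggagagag
RAB19 (chr7:140403808-140404107, plus strand): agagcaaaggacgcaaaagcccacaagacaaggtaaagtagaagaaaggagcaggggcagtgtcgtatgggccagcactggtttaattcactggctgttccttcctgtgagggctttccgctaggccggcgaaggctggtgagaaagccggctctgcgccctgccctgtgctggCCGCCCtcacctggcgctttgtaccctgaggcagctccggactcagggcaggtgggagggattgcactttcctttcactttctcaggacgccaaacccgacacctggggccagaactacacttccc
RAB27B (chr18:54717607-54717906, plus strand): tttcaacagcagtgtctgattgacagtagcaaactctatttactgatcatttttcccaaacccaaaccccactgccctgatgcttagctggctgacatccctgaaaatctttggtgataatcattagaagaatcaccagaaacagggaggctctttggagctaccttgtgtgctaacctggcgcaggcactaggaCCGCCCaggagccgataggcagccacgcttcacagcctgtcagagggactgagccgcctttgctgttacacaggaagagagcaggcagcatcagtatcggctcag

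In the printed promoters, RAB3IP held 4 GC boxes and RAB40C held 3 with 1 CCAAT box, and RAB19 and RAB27B held 1 GC box each. RAB21, RAB4A and RAB29 each held 1 E-box. Across the 59 RAB promoters, 46 (78.0%) held a GC box and 15 (25.4%) a CCAAT box, against 58.5% and 36.3% of all promoters in the table. The E-box stood in 7 RAB promoters (11.9%, against 8.87% of all): RAB4A, RAB5A, RAB21, RAB24, RAB29, RAB31 and RAB3GAP2. All 7 had a start-site summit in both libraries, where 72.1% of all genes with an E-box had one in TCF19 overexpression and 56.7% in control. The E-box was in 6 of 30 widely expressed and 0 of 19 tissue-restricted promoters. The CRE was in 3 RAB promoters (5.08%, against 2.59%), the NRF1 core in 2 (3.39%, against 4.26%) and the ETS motif in 5 (8.47%, against 6.20%). Each motif was counted on its own, so that a base can belong to more than 1 motif, and a match is a description of letters, not of binding.

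Inside the genes, more than 1000 bp from both ends, control had more summits than TCF19 overexpression. The RAB gene bodies held 182 summits in TCF19 overexpression, or 4.79 per 100 kb (exact Poisson interval 4.12 to 5.54), and 247 in control, or 6.51 (5.72 to 7.37); over all genes the densities were 3.92 and 6.22. A body summit was present in 52 RAB genes in TCF19 overexpression and 54 in control; over all genes with a body, 65.0% and 69.9% had one. With equal numbers of summits in each list the densities were 4.79 in TCF19 overexpression and 4.16 in control, so the order of the libraries changed with the length of the list. Widely expressed genes held 5.06 per 100 kb (3.96 to 6.37) in TCF19 overexpression and 8.57 (7.12 to 10.2) in control, and tissue-restricted genes held 3.52 (2.64 to 4.61) and 5.25 (4.16 to 6.55).

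Body counts followed gene length, with a Spearman rho of 0.82 in TCF19 overexpression and 0.86 in control over the 74 genes, which share each library and its depth. RAB31 had 12 summits in TCF19 overexpression, as many as RAB11FIP3, and 16 in control, the most there, followed in control by RAB7A with 9 and 15, RAB37 with 10 and 12, and RAB27A with 8 and 11. The longest genes were sparse: RAB38, with a span of 372 kb, had 6 and 8 summits, RAB3C 2 and 9, and RAB27B 3 and 4. Fewer summits stood in TCF19 overexpression than in control at 37 genes, more at 13 and as many at 24. Of those 24, 16 had no body summit in either library. Over all genes the body density was likewise lower in TCF19 overexpression, 3.92 against 6.22 per 100 kb. Of the 13 RAB genes with more, RAB11FIP3 had the largest difference, with 12 body summits in TCF19 overexpression and 3 in control. RAB11FIP4 had 8 and 6.

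**Figure D5:**
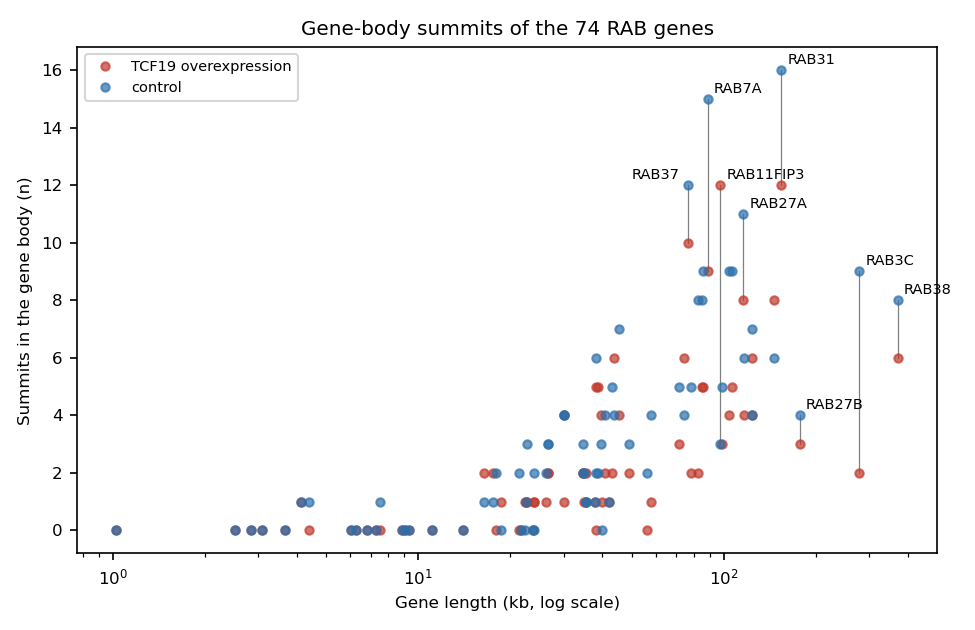
Number of summits in the gene body (vertical axis) against gene length (kb, log scale) for the 74 RAB genes in TCF19 overexpression and control, with grey lines joining the libraries at named genes. RAB31 and RAB7A lead in control with 16 and 15, and RAB11FIP3 has 12 in TCF19 overexpression and 3 in control.

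Other genes of the RAB cycle were taken from a list of 116 regulators and effectors that the symbol rule does not hold. A gene-end summit was present at 94 (81.0%) in TCF19 overexpression and 77 (66.4%) in control, with 73 in both, 21 in TCF19 overexpression alone, 4 in control alone and 18 in neither. Over all protein-coding genes the shares were 64.8% in TCF19 overexpression and 54.6% in control, with 16.0% and 5.84% in 1 library alone. Exchange factor genes had 30 of 33 in TCF19 overexpression and 23 in control, GTPase-activating protein genes 28 of 33 and 22, and effector genes 33 of 42 and 28. The genes of prenylation and membrane retrieval had fewer, 3 of 8 in TCF19 overexpression and 4 in control. GDI2, which encodes a GDP dissociation inhibitor, had 23 reads (14.6 to 34.5) in TCF19 overexpression and 13 (6.9 to 22.2) in control, while CHM and RABGGTA had no gene-end summit in either. With equal numbers of summits, which shortens the control list alone, 49 of the 116 had one in control. The share over all genes was not computed at that setting.

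Among the highest of these pileups in TCF19 overexpression was that of DENND5B, an exchange factor gene, with 31 reads (21.1 to 44.0) there and 19 (11.4 to 29.7) in control. BICD1 and RUFY2, effector genes, had 26 reads each in TCF19 overexpression, with 18 and 13 in control. In control the highest were SGSM1, with 17 reads in TCF19 overexpression and 22 in control, SBF2, with 25 and 22, and GOLGA5, with 23 and 21. The SBF2 summits lay apart, at 10304626 in TCF19 overexpression and 10305656 in control on chromosome 11, and both are shared with ADM. The median log2 ratio over the 73 genes seen in both was 0.49, beside 0.38 over all genes seen in both.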

How the data were processed

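Chromatin immunoprecipitation with an antibody against TCF19 was sequenced in 2 libraries, 1 from Ishikawa cells overexpressing TCF19 and 1 from control cells; groups were taken from the genotype label. Per the submitters' processing notes, the build is hg38 and the tools are BWA 0.7.12, an aligner, and MACS2 2.1.0, a peak caller. Whether an input was sequenced, and with which settings peaks were called, is not given in the sources used here. The authors' lists hold a score, a fold (the ratio of pileup at the summit to the local background, each with 1 added), the −log10 of a p-value and of a q-value (limit 0.05), and the summit's place in the interval. Peaks were called per library.

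Whole-read summit pileups were recovered from the deposited ratio and −log10 of p (misfit at most 0.001), at 99.996% of summits in TCF19 overexpression and 99.997% in control; the recovery was tested on simulated data. Genome averages are the lowest local background. Coordinates count from 1. Gene spans and promoters are RefSeq GRCh38.p14, and 59 members matched a promoter. Overlapping windows of neighbouring genes were named. Intervals are exact Poisson at 95% and cover counting error only, since reads may hold PCR copies and summits are local maxima.

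The members, the expression classes and the list of regulators were chosen with earlier results of these data known. The rule for named genes took the 8 members of highest pileup in each library, those seen in 1 library alone, the 5 highest and 5 lowest ratios, tissue-restricted members with a summit, widely expressed members without one, the 5 with most body summits, and the 3 highest regulators per library with ties. The other members, GDI2, CHM and RABGGTA were named after their values were seen. Of the regulators that the rule names, 1 is not reported here. Promoters were printed by pileup, ratio and GC content, leaving out chromosome 8. Alternatives changed the window (500 and 2000 bp), the q-value limit, the number of summits, the overlap (at least 1 bp), shared summits, the gene end and the members. Python 3.11.15, numpy 2.4.6, pandas 2.3.3, scipy 1.17.1 and matplotlib 3.10.9 were used.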

Additional observations from a re-analysis of the deposited data

How the results depend on the processing

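No paired analysis was possible because each group had 1 library. Counts are listed here where they moved by more than 1.5 times, and densities where they left the reported Poisson interval. With a −log10 q-value of at least 3, 1 RAB gene was seen in control alone, and body densities were 3.77 per 100 kb in TCF19 overexpression and 4.06 in control. With equal numbers of summits in each list, those of highest fold, 28 RAB genes were seen in TCF19 overexpression alone and 0 in control alone. Control gene-end summits stood at 11 tissue-restricted genes and 49 regulators, and the control body density was 4.16. The control counts over all RAB genes (34) and widely expressed genes (17) fell but did not move by more than 1.5 times. This setting shortens the control list by construction. At gene starts alone, where 59 genes have a strand, 0 were seen in control alone and control summits stood at 11 tissue-restricted genes. Leaving out members with near-identical copies, a setting chosen after seeing the data, moved no count by more than 1.5 times. It gave 59 genes with a gene-end summit in TCF19 overexpression and 49 in control. The median log2 ratio at genes seen in both ran between 0.15 (the stricter q-value) and 0.37 (gene starts). Pileups of 8 to 25 reads limit what these libraries can show for any single gene, and 1 library per group gives no spread between cultures.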

Other observations

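Pseudogenes named after RABs had gene-end summits at about the level of pseudogenes in general. Of 17 such pseudogenes, 4 (23.5%) had one in TCF19 overexpression and 6 (35.3%) in control, against 21.8% and 28.1% of all 16664 pseudogenes. RAB1C, a pseudogene on chromosome 9, had 20 reads in each library, and RAB42P1 on chromosome 14 had 19 in TCF19 overexpression and 18 in control.

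Of 11 non-coding genes named after a RAB neighbour, 7 had a gene-end summit in TCF19 overexpression and 5 in control, against 32.1% and 34.1% of all long non-coding genes. In TCF19 overexpression all of these but RAB33B-AS1 shared the summit with the RAB gene they are named after (RAB4A, RAB5C, RAB6C, RAB30, RAB35 and RAB37), so they are no separate signal. RAB33B-AS1 had 19 reads in TCF19 overexpression and 13 in control, although RAB33B itself had no gene-end summit in either library; the RefSeq span of RAB33B holds RAB33B-AS1, so this summit lies inside that gene. The higher coordinate of the RAB4A-AS1 span lies within the RAB4A promoter. RAB4A-AS1 had 21 reads in TCF19 overexpression and 9 in control, as RAB4A did.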
